A study of Mus musculus with 15 samples.

Results

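The 9 genes described here, *Aim2*, *Ifi203*, *Ifi204*, *Ifi205*, *Ifi207*, *Ifi209*, *Ifi211*, *Ifi213* and *Mndal*, belong to the PYHIN family of DNA sensors. They were taken by name, as the family members that had been listed for this account, and their Ensembl identifiers were looked up among the 51763 genes of the count table. All 9 had a row and all 9 passed the filter on low counts. The other 5 PYHIN genes of the annotation, *Ifi202b*, *Ifi203-ps*, *Ifi206*, *Ifi208* and *Ifi214*, are given for comparison. The series holds RNA sequencing of 15 libraries of mouse bone marrow-derived macrophages (BMDMs), 3 for each of 5 conditions, and asks how macrophages stimulated with the alarmin HMGB1 compare with classically activated ones.

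All conditions used wild-type cells of female C57BL/6NTac mice aged 8 to 10 weeks, grown with macrophage colony-stimulating factor (M-CSF) and stimulated for 24 h. PBS was the control. The frHMGB1 and dsHMGB1 groups received 5 µg/mL of recombinant HMGB1 carrying a calmodulin-binding tag, in the fully reduced or the disulfide form, and the reduced form was made in buffers with a reducing agent. The LPS group received 1 µg/mL of ultrapure LPS. The LPS/IFNγ group received 20 ng/mL of IFNγ together with LPS. For this LPS the treatment field of the labels gives 1 µg/mL, while their protocol text and the paper give 100 ng/mL. An effect of IFNγ and one of the LPS dose can therefore not be told apart. The cells of 5 mice were pooled before seeding. The 3 libraries of a condition therefore repeat the culture and the library but not the animal, and the p-values cover that spread alone. In these bulk samples, fewer cells of a type and less RNA per cell cannot be told apart.

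A typical PYHIN protein joins a pyrin domain, which binds other pyrin domains, to 1 or more HIN domains, which bind double-stranded DNA. Not every protein of the family has both. *Aim2* encodes the sensor that recruits the adaptor ASC (*Pycard*) and caspase-1 on cytosolic DNA, which leads to cleavage of IL-1β, IL-18 and gasdermin D. *Ifi204* encodes a relative of human IFI16, a nuclear and cytosolic DNA sensor linked to the STING pathway and to type I interferon. The remaining genes form a cluster of interferon-inducible paralogs that expanded in the mouse, and the separate roles of several of them are less well defined.

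The family lay in 1 stretch of chromosome 1 (GRCm38, GENCODE M21), chr1:173350879-174031810, a length of 681 kb. *Aim2* (ENSMUSG00000037860, plus strand) stood at its start, chr1:173350879-173466040. *Ifi213* (ENSMUSG00000073491, minus strand) followed at chr1:173566283-173599274. *Ifi209* (ENSMUSG00000043263), the other member on the plus strand, was at chr1:173630917-173647928. *Ifi207* (ENSMUSG00000073490, minus strand) was at chr1:173723427-173741747 and its neighbour *Ifi204* (ENSMUSG00000073489, minus strand) at chr1:173747293-173766943. *Mndal* (ENSMUSG00000090272, minus strand) had the widest span of these after *Aim2*, chr1:173849126-173942491. That span held all of *Ifi211* (ENSMUSG00000026536, minus strand, chr1:173896345-173913046), with no exonic base in common. It also covered 22085 bases of *Ifi203* (ENSMUSG00000039997, minus strand, chr1:173920407-173942672), with 37 exonic bases in common. *Ifi205* (ENSMUSG00000054203, minus strand) closed the stretch at chr1:174011998-174031810.

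The members shared sequence to very different degrees, which matters because reads from a shared stretch cannot be assigned to 1 gene. Of the 50-base stretches of the annotated *Ifi211* transcript, 72.8% were also found in a transcript of another gene, with 44.7% in *Ifi205*, 30.1% in *Ifi204* and 17.1% in *Mndal*. For *Ifi209* the share was 33.7%, nearly all of it (33.4%) in *Ifi214*. The shares were 20% for *Ifi204*, 19.6% for *Mndal*, 18.6% for *Ifi205*, 15.6% for *Ifi213*, 12.4% for *Ifi203* and 7.29% for *Ifi207*. *Aim2* shared 0.742% of its stretches and none of them with another PYHIN gene. With stretches of 100 bases the share of *Ifi211* was 56.9% and that of *Aim2* was 0. In alignments of the coding sequences, *Ifi211* matched *Ifi204* at 97.1% of 1231 aligned bases, *Mndal* at 97.2% of 813 and *Ifi205* at 95.1% of 1210. *Ifi203* and *Ifi207* matched at 89.3% of 1861 aligned bases. The values of *Ifi211* and *Ifi209* in particular, and the split of reads among *Ifi204*, *Ifi205*, *Ifi211* and *Mndal*, are therefore uncertain, and those of *Aim2* are nearly free of this limit.

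**Figure D1:**
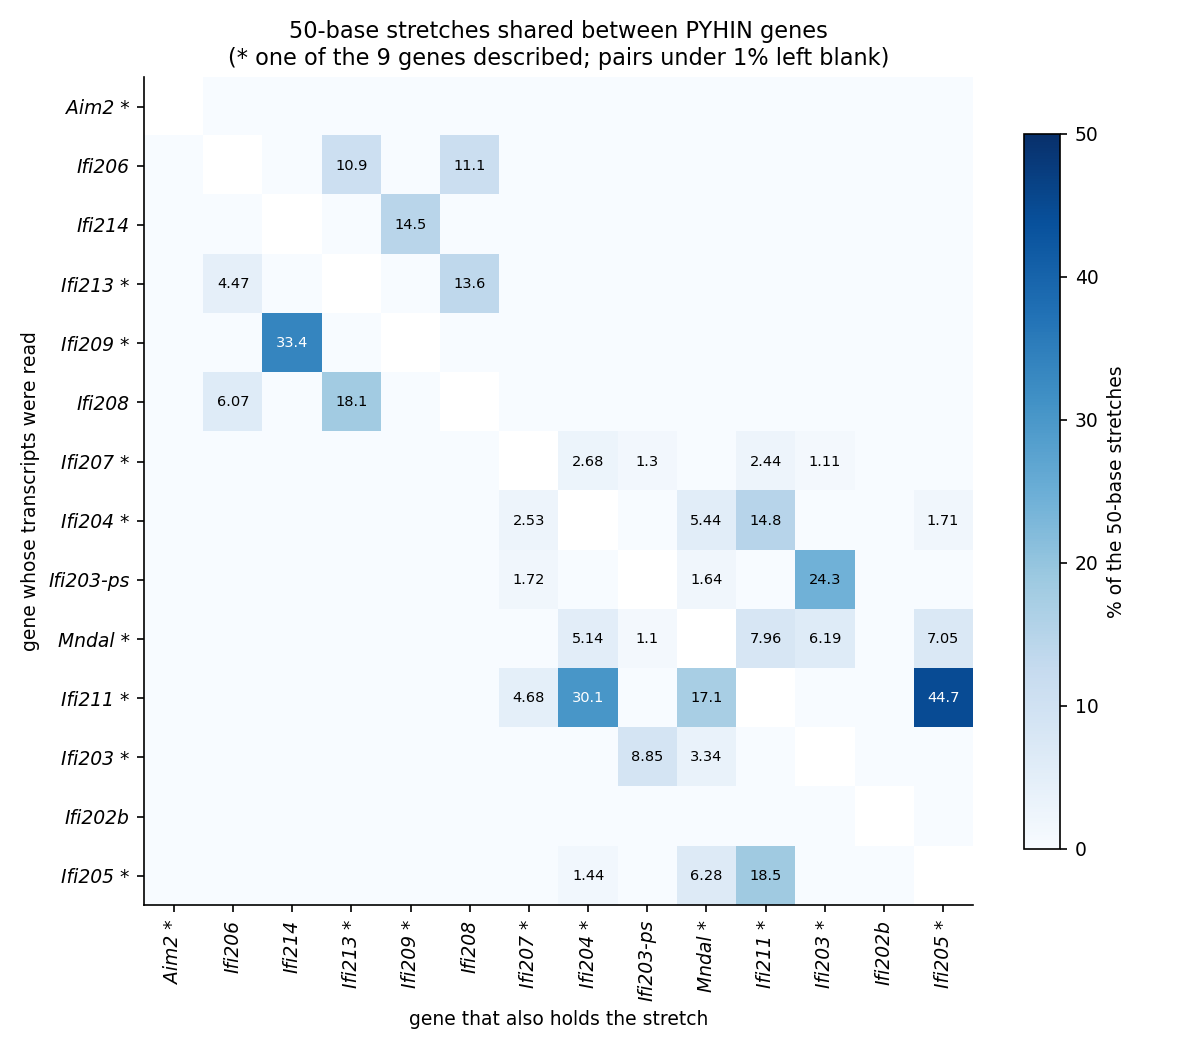
Share of the 50-base stretches of each PYHIN gene (vertical axis) that is also found in another PYHIN gene (horizontal axis), with genes in chromosomal order and the percentage printed where it reached 1%. The darkest field is *Ifi211* against *Ifi205* at 44.7%, and the row of *Aim2* is empty.

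The promoter sequences show a second kind of sharing, and are printed because most of them hold a motif bound by interferon-activated factors. The windows are from RefSeq (GRCm38.p6, chromosome 1), taken from 250 bases before to 50 after each start site, and 8 of the 9 members were matched there, with 10 start sites. *Ifi204* was not matched. The core of the interferon-stimulated response element (ISRE), searched as GAAANNGAAA on both strands, was present in 6 of the 8 members matched, against 3.44% of all 32851 promoters of the same length. *Aim2* and *Ifi209* had no match to these letters in this window. The γ-activated sequence (GAS), searched as TTCNNNGAA on both strands, was found in 0 of the 8, against 8.3% of all promoters. The κB site, searched as GGGRNWYYCC on both strands (R for A or G, W for A or T, Y for C or T), was found in 0 of the 8, against 4.51%. With shares this low, 0 among 8 genes says little. Each line below runs 5′ to 3′ on the minus strand, the strand of these genes, and the capitals mark the ISRE core. These windows overlap no exon of GENCODE M21.
*Ifi213*, chr1:173599311-173599370: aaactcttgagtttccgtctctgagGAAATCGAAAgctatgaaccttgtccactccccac
*Ifi207*, chr1:173741816-173741875: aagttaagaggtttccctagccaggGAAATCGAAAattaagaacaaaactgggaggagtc
*Mndal*, chr1:173880189-173880248: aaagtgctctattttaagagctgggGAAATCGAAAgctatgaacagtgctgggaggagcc
*Ifi211*, chr1:173913049-173913108: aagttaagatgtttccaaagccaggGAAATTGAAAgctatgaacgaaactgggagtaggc
*Ifi205*, chr1:174031855-174031914: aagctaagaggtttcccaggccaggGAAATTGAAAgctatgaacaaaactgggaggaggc
The core printed above began 41 bases before the start site in *Ifi207*, 37 in *Ifi211* and 36 in *Mndal*. It lay farther off in *Ifi213* (73) and *Ifi205* (134). The corresponding window of *Ifi203*, chr1:173942493-173942552, was identical to that of *Mndal* at 60 of 60 bases and began its core 35 bases before 1 of the 2 start sites of that gene. The window of *Ifi213* was identical to that of *Ifi208*, a PYHIN gene outside the list, at 60 of 60 bases. *Ifi211* and *Ifi205* shared 54 of the 60 bases. On the opposite strand, *Ifi205* held another core that began 23 bases after its start site. *Mndal* also held another core on the opposite strand, 54 bases before its other start site. These matches describe the letters and are no measurement of binding.

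The libraries held from 40934540 to 80925478 counts. PBS replicate 3 stood apart, with a correlation of 0.934 to 0.9389 with the other PBS libraries against 0.9872 to 0.9932 for all other pairs of replicates, and log2 fold changes of the 9 genes over PBS are given with and without it. The 8 macrophage markers were abundant in all libraries. Their sum in CPM, counts per 1000000 of the library total, was 21900 to 26180 in PBS, 27010 to 27280 in frHMGB1, 19550 to 21040 in dsHMGB1, 16140 to 16840 in LPS and 13520 to 13860 in LPS/IFNγ. On this sum the groups did not overlap, and the 3 in which the PYHIN genes were high were the lowest. *Lyz2* made up most of it, with 12487554 counts over all libraries against 1885747 for *Csf1r*, the next. The sum therefore says little about each of the other markers. The 6 lymphocyte markers summed to at most 0.152 CPM, with *Cd3e*, *Cd3g* and *Ncr1* at 0 in all libraries, and the 6 neutrophil markers to at most 5.473 CPM, with *Ly6g*, *S100a9* and *Mpo* at 0. The 5 dendritic cell markers summed to 1.727 to 2.769 CPM in PBS, 0.982 to 1.344 in frHMGB1, 3.091 to 4.279 in dsHMGB1, 7.774 to 8.481 in LPS and 13.11 to 14.22 in LPS/IFNγ, mainly through *Zbtb46* and *Xcr1*, with *Flt3* at no more than 0.0395 CPM in any library. The 6 fibroblast markers lay at 118.1 to 282.2 CPM in PBS and at 189.3 to 247.5 CPM in the other groups. The part of these cells in the results below was not tested.

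Levels are given as normalized counts, the counts divided by the TMM-scaled library size and brought to a common size, and a gene was called where its Benjamini-Hochberg adjusted p over all 16919 genes tested was under 0.05 in the quasi-likelihood test of edgeR. Standard errors (SE) belong to log2 fold changes.

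*Aim2*, the inflammasome sensor, peaked in LPS and was lower in LPS/IFNγ than in dsHMGB1. It stood at 1868, 2015 and 1741 normalized counts in the PBS libraries and at 1989, 2017 and 1960 in frHMGB1. In dsHMGB1 it stood at 9724, 9774 and 9184, in LPS at 12654, 12164 and 11258, and in LPS/IFNγ at 4629, 4570 and 4903. The libraries of dsHMGB1, LPS and LPS/IFNγ overlapped neither each other nor those of PBS, and those of frHMGB1 overlapped PBS. Over PBS, *Aim2* rose by a log2 fold change of 2.35 (SE 0.09) in dsHMGB1, 2.68 (SE 0.09) in LPS and 1.33 (SE 0.08) in LPS/IFNγ, and without PBS replicate 3 by 2.31, 2.67 and 1.27.

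*Ifi204*, the relative of human IFI16, reached similar levels in LPS and LPS/IFNγ. It stood at 2627, 3174 and 4330 in PBS and at 3041, 3285 and 2850 in frHMGB1. The values were 38599, 36668 and 36302 in dsHMGB1, 68060, 65390 and 62564 in LPS, and 60530, 61882 and 63600 in LPS/IFNγ. The LPS and LPS/IFNγ libraries overlapped, and all libraries of both lay above those of dsHMGB1. The log2 fold changes over PBS were 3.46 (SE 0.15) in dsHMGB1, 4.27 (SE 0.16) in LPS and 4.20 (SE 0.16) in LPS/IFNγ, and without PBS replicate 3 they were 3.69, 4.53 and 4.41.

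*Ifi205* and *Ifi213* had few counts in control cells and the widest ranges of the 9. *Ifi205* stood at 27.1, 27.1 and 23.4 in PBS and at 40.6, 63.2 and 25.1 in frHMGB1. It then stood at 22168, 24943 and 22004 in dsHMGB1, 71387, 71833 and 69715 in LPS, and 88527, 89884 and 92669 in LPS/IFNγ. Its log2 fold changes over PBS, 9.78 (SE 0.27), 11.41 (SE 0.28) and 11.75 (SE 0.28) in that order, were the largest of the members, also without PBS replicate 3 (9.74, 11.39 and 11.69), and all its libraries in LPS/IFNγ were above all in LPS. *Ifi213* stood at 16.0, 16.3 and 9.34 in PBS, at 29.3, 26.2 and 9.14 in frHMGB1, at 2132, 2282 and 1594 in dsHMGB1, at 3703, 3677 and 3038 in LPS, and at 5344, 5443 and 5775 in LPS/IFNγ. Its log2 fold changes over PBS were 7.12 (SE 0.32), 7.91 (SE 0.32) and 8.58 (SE 0.33), and without PBS replicate 3 they were 6.96, 7.78 and 8.40. In frHMGB1 the third library of both genes lay within or below the PBS values and the other 2 above them.

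*Ifi203* and *Mndal* both rose stepwise from dsHMGB1 to LPS to LPS/IFNγ. Their genes overlap, and an identical 60-base window around an ISRE core lies in a promoter of each. *Ifi203* stood at 871, 994 and 526 in PBS, 1026, 1199 and 1020 in frHMGB1, 28435, 37586 and 29225 in dsHMGB1, 50684, 49110 and 42647 in LPS and 67013, 70431 and 69307 in LPS/IFNγ. The log2 fold changes over PBS were 5.31 (SE 0.22), 5.89 (SE 0.23) and 6.43 (SE 0.24), or 5.10, 5.71 and 6.20 without PBS replicate 3. *Mndal*, named for its likeness to a myeloid nuclear antigen, stood at 918, 1021 and 1047 in PBS, 1337, 1493 and 1233 in frHMGB1, 19537, 20453 and 18426 in dsHMGB1, 38842, 36980 and 29814 in LPS and 48193, 49511 and 48351 in LPS/IFNγ. The log2 fold changes over PBS were 4.29 (SE 0.12), 5.15 (SE 0.13) and 5.61 (SE 0.13), or 4.34, 5.22 and 5.64 without that library. For both genes the 5 conditions stood in 5 separate ranges without overlap.

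*Ifi207* was the member with the highest level in control cells and with the smallest change in dsHMGB1 and LPS. It stood at 11804, 12456 and 5296 in PBS, where replicate 3 was the low one, and at 11465, 11566 and 11050 in frHMGB1. The values were 26496, 42769 and 39223 in dsHMGB1, 48049, 50074 and 48048 in LPS, and 46604, 48766 and 48474 in LPS/IFNγ. The log2 fold changes over PBS were 1.88 (SE 0.26), 2.31 (SE 0.26) and 2.28 (SE 0.26), and without PBS replicate 3 they were 1.59, 2.04 and 1.97. In dsHMGB1 replicate 1 stood well below the other 2.

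*Ifi209* and *Ifi211*, the 2 members with the largest shares of sequence in common with other genes, both peaked in LPS. *Ifi209* stood at 519, 592 and 341 in PBS, 534, 519 and 394 in frHMGB1, 21798, 24138 and 20782 in dsHMGB1, 48014, 46046 and 42096 in LPS and 40496, 42582 and 44632 in LPS/IFNγ. *Ifi211* stood at 286, 309 and 256 in PBS, 466, 517 and 378 in frHMGB1, 13912, 14334 and 14478 in dsHMGB1, 28770, 30398 and 27739 in LPS and 22090, 23123 and 24105 in LPS/IFNγ. The LPS and LPS/IFNγ libraries overlapped for *Ifi209* and were apart for *Ifi211*. Relative to PBS, the log2 fold changes for dsHMGB1, LPS and LPS/IFNγ came to 5.52 (SE 0.20), 6.55 (SE 0.21) and 6.45 (SE 0.21) for *Ifi209* and 5.65 (SE 0.13), 6.67 (SE 0.14) and 6.35 (SE 0.14) for *Ifi211*. Without PBS replicate 3 they were 5.33, 6.39 and 6.25 for *Ifi209* and 5.59, 6.64 and 6.27 for *Ifi211*.

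**Figure D2:**
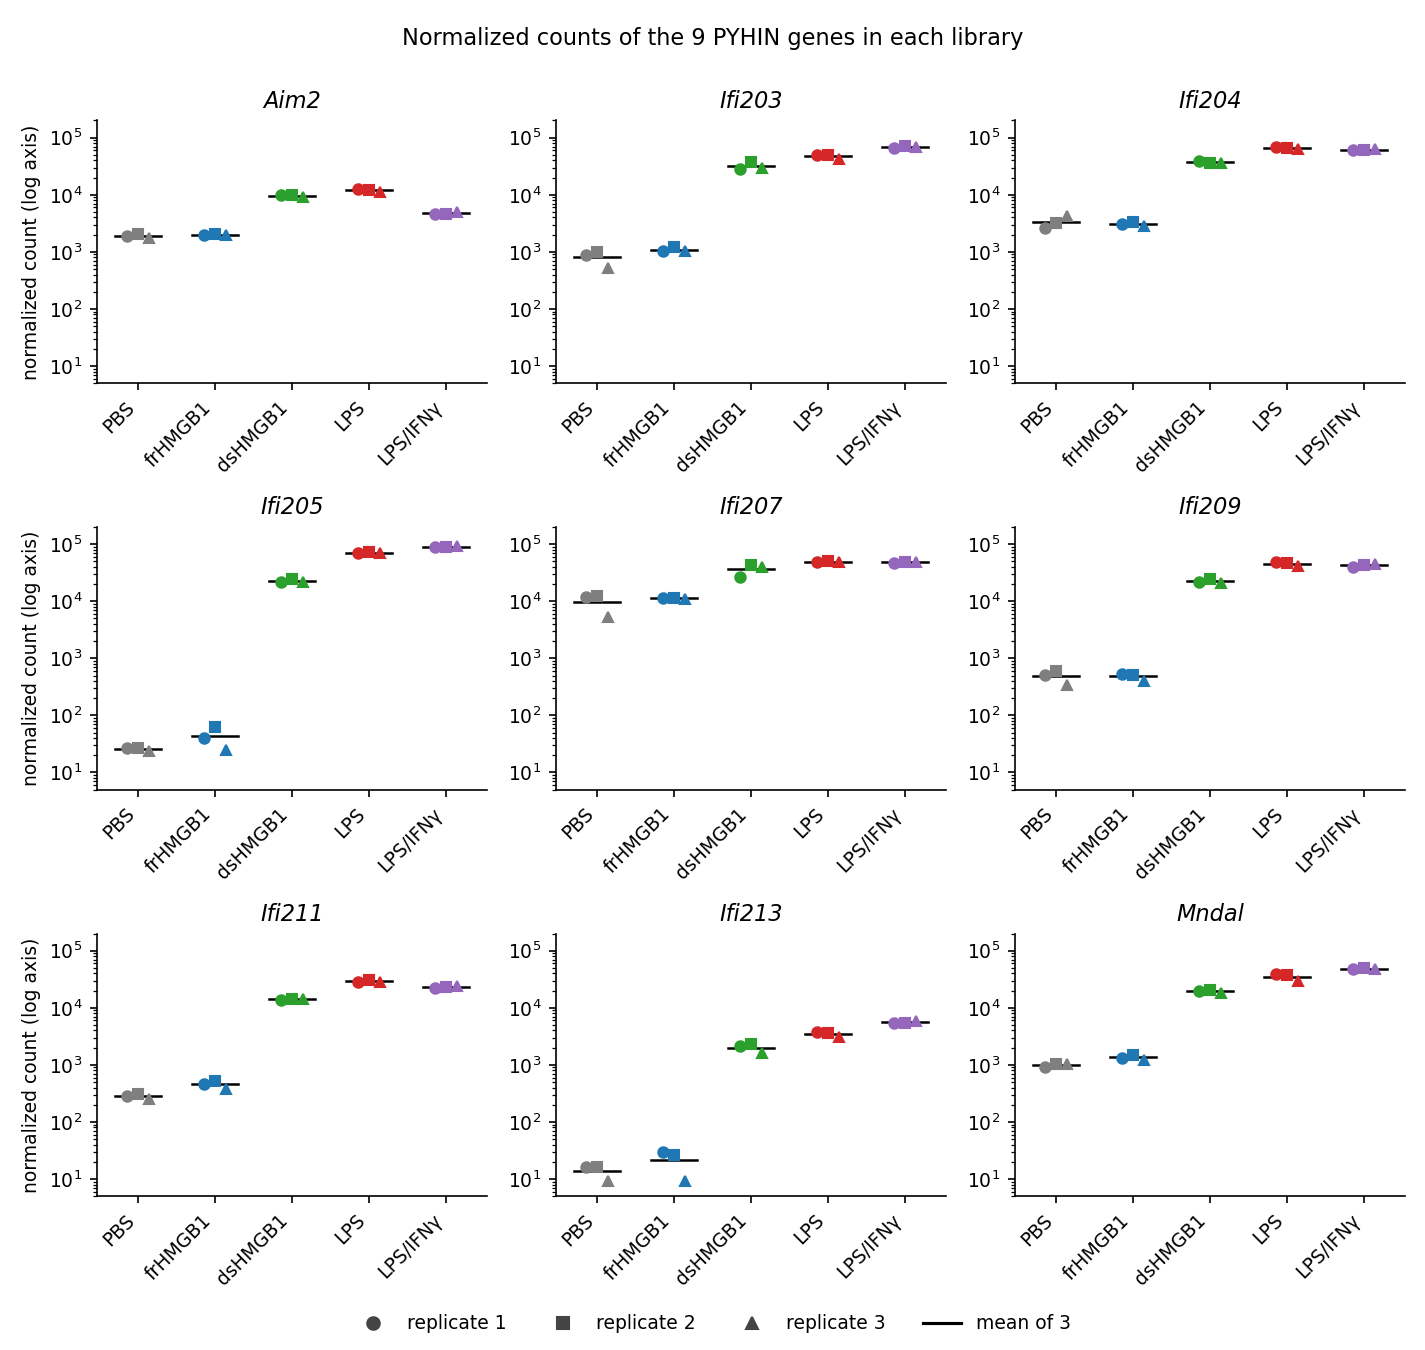
Normalized count of each of the 9 PYHIN genes (vertical, log axis, the same range in all panels) in the 3 libraries of each condition, with the replicate number as the symbol and the mean as a bar. The control levels run from 13.9 for *Ifi213* to 9852 for *Ifi207*, and *Aim2* is the panel in which LPS/IFNγ falls below both dsHMGB1 and LPS.

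All 9 genes were called higher than PBS in dsHMGB1, where 23.3% of all genes tested were called higher, in LPS, where 26.7% were, and in LPS/IFNγ, where 29% were. None was called lower in any of the 3 conditions, against 24.2%, 36.2% and 31.2% of all genes. The largest adjusted p among these values was that of *Ifi207* in dsHMGB1, 4.19e-05. For dsHMGB1, LPS and LPS/IFNγ in turn, the medians over the 9 genes on the log2 scale came to 5.31, 5.89 and 6.35, beside medians of -0.11, -0.27 and -0.15 over all genes tested. All libraries of each gene in these conditions lay above all PBS libraries, as did those of 25.9%, 28.4% and 32.6% of all genes tested. The 3 comparisons share the PBS libraries, and without PBS replicate 3 all 9 genes were again called higher in each. On CPM of the total count, without TMM, the members' log2 ratios of means over PBS were lower by a median of 0.36, 0.64 and 0.66, and none changed direction.

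**Figure D3:**
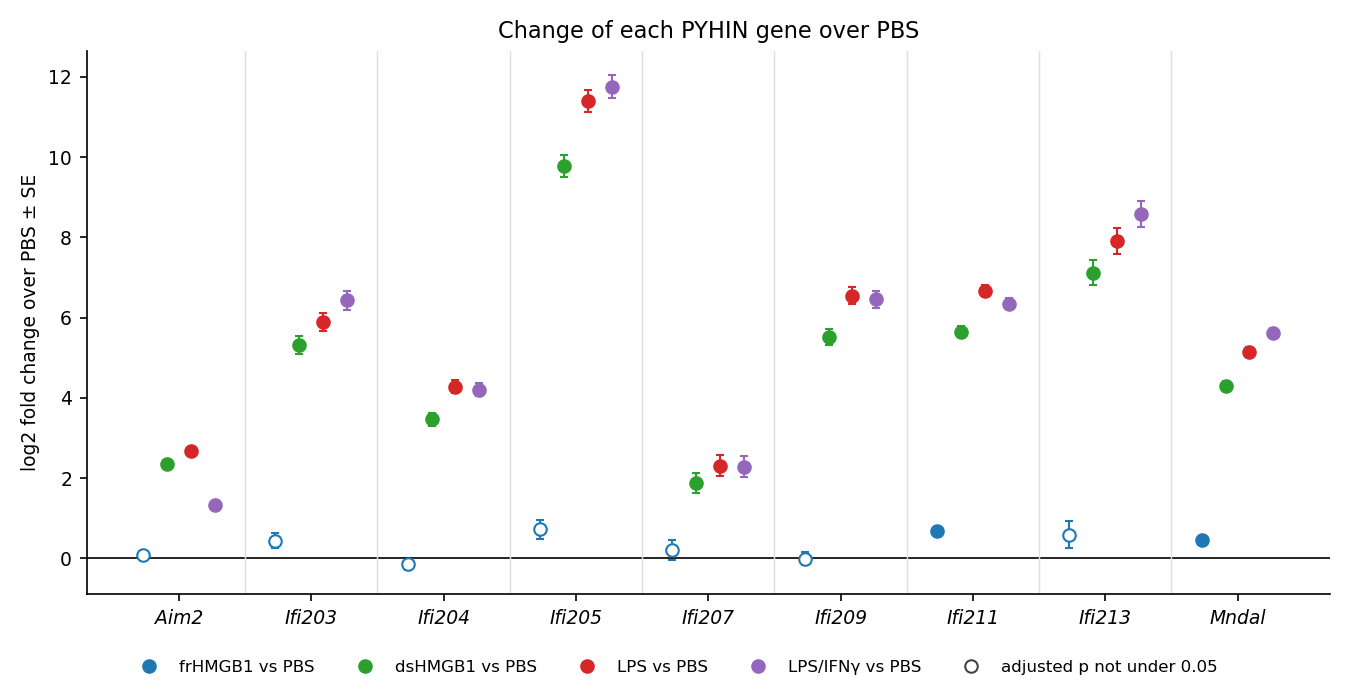
Log2 fold change of each PYHIN gene over PBS (vertical) with its standard error, for the 4 stimulations in colour, and open symbols where the adjusted p was not under 0.05. The frHMGB1 values lie between -0.14 and 0.72, and those of the other 3 stimulations between 1.33 and 11.75.

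With frHMGB1, the change was small for the whole family. *Ifi211* was called higher than PBS, with a log2 fold change of 0.68 (SE 0.11, adjusted p = 0.0019), and so was *Mndal*, with 0.45 (SE 0.11, adjusted p = 0.024). That is 2 of 9 genes beside 1.31% of all genes called higher, and 0 of 9 were called lower beside 5.69%. The call of *Mndal* was lost without PBS replicate 1 (adjusted p = 0.0806), without frHMGB1 replicate 1 (0.0672) and without frHMGB1 replicate 2 (0.124). In a fit of the 6 PBS and frHMGB1 libraries alone neither was called, with adjusted p = 0.21 for *Ifi211* and 0.485 for *Mndal*. *Ifi203* had no overlap of its libraries with PBS either, which made 3 of 9 genes above PBS in all libraries beside 9.43% of all genes, at a log2 fold change of 0.44 (SE 0.19, adjusted p = 0.259). The values of *Ifi205* (0.72, SE 0.23, adjusted p = 0.0948) and *Ifi213* (0.59, SE 0.34, adjusted p = 0.432) were larger but rested on few counts. *Aim2* was at 0.09 (SE 0.08, adjusted p = 0.668), *Ifi207* at 0.21 (SE 0.25), *Ifi209* at -0.01 (SE 0.17) and *Ifi204* at -0.14 (SE 0.14). Without PBS replicate 3 the sign turned for *Ifi204* (0.09) and *Ifi207* (-0.08), and neither was called. In that fit *Ifi211* (0.62) and *Mndal* (0.49) were still called. The values not called were 0.23 for *Ifi203*, 0.69 for *Ifi205*, 0.44 for *Ifi213*, 0.05 for *Aim2* and -0.19 for *Ifi209*.

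The 2 redox forms of HMGB1 were given at the same dose and time and are compared directly. According to the paper, dsHMGB1 was a gift of another laboratory, made without the reducing agent, and no such source is named for frHMGB1. Effects of the redox form and of the preparation can therefore not be told apart here. The paper reports that endotoxin in the HMGB1 was under a stated limit. The part of endotoxin in these results was not tested. All 9 genes were called higher in dsHMGB1 than in frHMGB1, beside 27.7% of all genes called higher and 23.1% called lower. The log2 fold change was 9.06 (SE 0.26) for *Ifi205*, 6.53 (SE 0.31) for *Ifi213*, 2.26 (SE 0.09) for *Aim2* and 1.67 (SE 0.25) for *Ifi207*, the smallest of the 9. All dsHMGB1 libraries lay above all frHMGB1 libraries for the 9 genes, and for 36% of all genes tested.

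Against LPS alone, dsHMGB1 gave lower levels. In 8 of the 9 genes dsHMGB1 was called lower than LPS, beside 10.6% of all genes, and 0 were called higher, beside 15.8%. *Ifi205* fell shortest of the LPS level, with a log2 fold change of -1.62 (SE 0.18, adjusted p = 2.46e-05), or a ratio of 0.325. *Ifi209* followed with -1.03 (SE 0.17), *Ifi211* with -1.02 (SE 0.11) and *Mndal* with -0.85 (SE 0.11). *Aim2* differed least among those called, at -0.33 (SE 0.08, adjusted p = 0.00921). *Ifi207* was at -0.43 (SE 0.25, adjusted p = 0.24), and without PBS replicate 3, which enters through the shared estimate of the spread, it was called, with -0.46 (adjusted p = 0.00209). The calls of *Ifi203* (-0.58, SE 0.19, adjusted p = 0.0348) and *Ifi213* (-0.79, SE 0.23, adjusted p = 0.0195) were lost without several single libraries, the largest adjusted p being 0.124 for *Ifi203* without dsHMGB1 replicate 3 and 0.0989 for *Ifi213* without that same library. All dsHMGB1 libraries lay below all LPS libraries for all 9 genes, and for 23.3% of all genes tested. On CPM of the total count each of these differences was smaller by 0.28 and kept its direction, and the smallest of them was then *Aim2* at -0.05.

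Against LPS/IFNγ, the order differed for *Aim2*. Its level was higher in dsHMGB1, with a log2 fold change of 1.02 (SE 0.08, adjusted p = 6.69e-07), or a ratio of 2.03, beside 16.5% of all genes called higher. The other members called, 7 in number, were lower in dsHMGB1, beside 16.7% of all genes called lower. The log2 fold change was -1.97 (SE 0.18) for *Ifi205*, -1.46 (SE 0.23) for *Ifi213*, -1.32 (SE 0.11) for *Mndal* and -1.12 (SE 0.19) for *Ifi203*. It was nearer 0 for *Ifi209* (-0.94, SE 0.17), *Ifi204* (-0.74, SE 0.14) and *Ifi211* (-0.70, SE 0.11). *Ifi207* was not called, at -0.41 (SE 0.25, adjusted p = 0.244), though without PBS replicate 3 it was (-0.39, adjusted p = 0.0063). On CPM of the total count the differences moved up by 0.31 and none changed direction.

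Between LPS/IFNγ and LPS, the members moved in both directions. *Aim2* fell by 1.36 on the log2 scale (SE 0.08, adjusted p = 1.06e-07), to a ratio of 0.391 of its LPS level, and this call was kept without each of the 15 libraries in turn, with values from -1.45 to -1.35. *Mndal* rose by 0.47 (SE 0.11, adjusted p = 0.00596), *Ifi213* by 0.67 (SE 0.23, adjusted p = 0.0447) and *Ifi203* by 0.54 (SE 0.19, adjusted p = 0.0497). *Ifi211* fell by 0.33 (SE 0.11, adjusted p = 0.0418). The 3 genes called higher stand beside 16.3% of all genes and the 2 called lower beside 9.36%. The changes of *Ifi205* (0.35, SE 0.18, adjusted p = 0.181), *Ifi209* (-0.09, SE 0.17), *Ifi204* (-0.08, SE 0.14) and *Ifi207* (-0.02, SE 0.25) were not called. The calls of *Ifi203*, *Ifi213* and *Ifi211* were near the threshold. The call was lost in 12 of the 15 fits without 1 library for *Ifi203*, in 9 for *Ifi213*, in 8 for *Ifi211* and in 1 for *Mndal*, that without LPS replicate 3 (0.31, adjusted p = 0.0632). When the counts of the overlapping genes *Mndal*, *Ifi211* and *Ifi203* were summed to 1 gene, the sum stood at 0.28 (adjusted p = 0.0841), a value in which the opposite directions of *Ifi211* and *Mndal* cannot be seen. *Aim2* was lower there too, at -1.40.

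**Figure D4:**
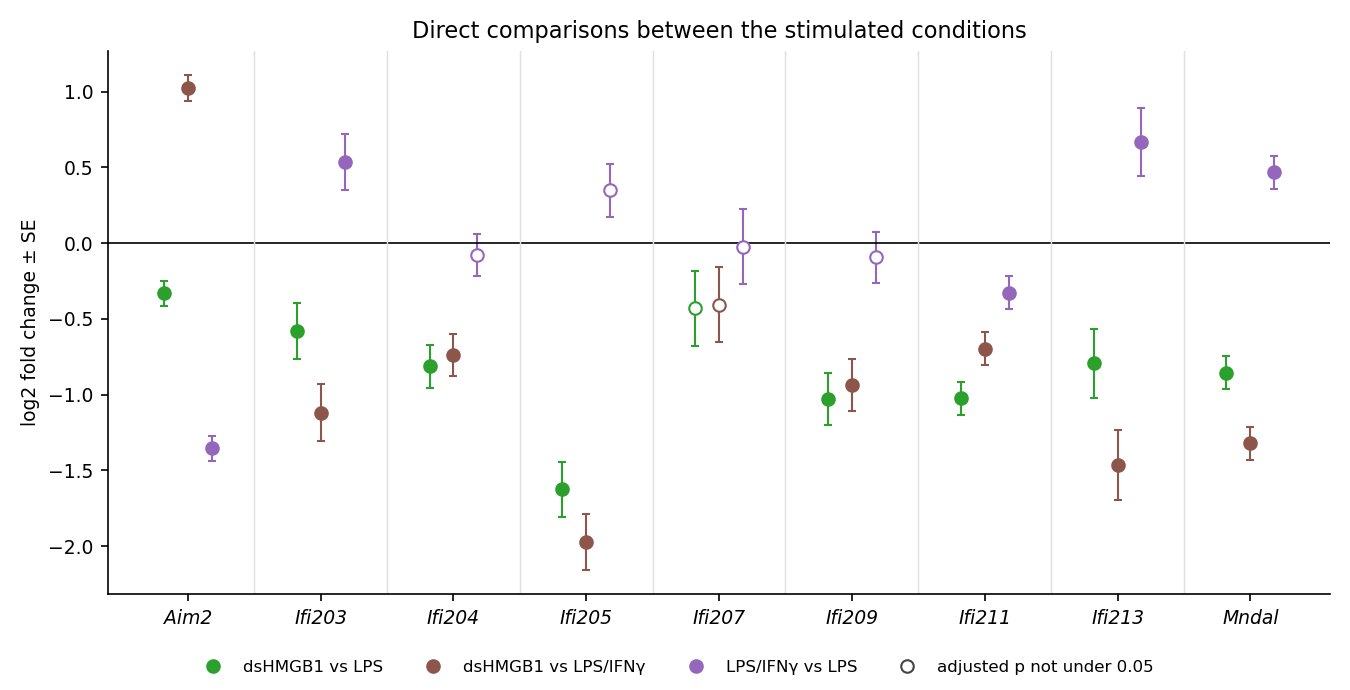
Log2 fold change with its standard error (vertical) of each PYHIN gene for dsHMGB1 against LPS, dsHMGB1 against LPS/IFNγ and LPS/IFNγ against LPS, with open symbols where the adjusted p was not under 0.05. *Aim2* is the gene with dsHMGB1 above LPS/IFNγ (1.02) and with the lowest value for LPS/IFNγ against LPS (-1.36).

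The order of the 5 conditions was the same for *Ifi203*, *Ifi205*, *Ifi213* and *Mndal*, with LPS/IFNγ highest, then LPS, dsHMGB1, frHMGB1 and PBS. Of these neighbours, LPS/IFNγ and LPS were not told apart for *Ifi205*, and frHMGB1 and PBS were told apart for *Mndal* alone. *Ifi204*, *Ifi207*, *Ifi209* and *Ifi211* had LPS highest and LPS/IFNγ next, and these 2 differed for *Ifi211* alone. For *Ifi207*, dsHMGB1 was not told apart from either. *Aim2* ran from LPS to dsHMGB1 to LPS/IFNγ, with all 3 told apart. Genes were set side by side per kilobase of exonic length, which joins the exons of all annotated transcripts. That length was 6840 bases for *Ifi213* with 5 transcripts and 1785 for *Ifi211* with 1, so the ranking between genes is approximate. On this scale *Ifi207* led in PBS with a mean of 2879 normalized counts per kb, ahead of *Ifi204* with 948.4 and *Aim2* with 535.5. In LPS/IFNγ *Ifi205* led with 21630 per kb, ahead of *Ifi204* with 17410 and *Ifi207* with 14010, and *Aim2* with 1343 and *Ifi213* with 807.1 were the lowest. Together the 9 genes took 0.0255 to 0.0453% of all counts in PBS, 0.0405 to 0.0444% in frHMGB1, 0.3 to 0.347% in dsHMGB1, 0.452 to 0.506% in LPS and 0.515 to 0.528% in LPS/IFNγ.

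The genes whose levels ran most like each member were sought among 10121 protein-coding genes, by Pearson's r of log2(normalized count + 1) over the 15 libraries, which fall into 5 conditions and share depth and normalization. For *Aim2* they were *Epsti1* (r = 0.9971), *Mfsd7a* (0.9969) and *Rcsd1* (0.9947). For *Ifi203* they were *Cd274* (0.9986), *Snx10* (0.9984) and *Trim30a* (0.9984), and for *Ifi204* *Sp100* (0.9991), *Isg15* (0.9983) and *Il15* (0.9979). *Ifi205* ran with *Oasl2* (0.9994), *Gbp3* (0.9994) and *Slfn8* (0.9984), and *Ifi213* with *Gbp3* (0.9976), *Socs1* (0.9971) and *Slfn1* (0.9971). *Ifi209* ran with *Parp9*, *Vcam1* and *Slfn8* (0.9988 each), and *Ifi211* with *Traf1* (0.9992), *Gpr85* (0.9985) and *Socs3* (0.9983). *Mndal* ran with *Tap1* (0.9982), *Cd83* (0.9976) and *Cd40* (0.9972), and *Ifi207* with *Ascc3* (0.9966), *Man2a1* (0.9963) and *Frmd4a* (0.9958).

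The other PYHIN genes of the locus were likewise called higher than PBS in dsHMGB1, LPS and LPS/IFNγ, 5 of 5 in each. In the fit of all libraries this stands beside 23.3%, 26.7% and 29% of all genes. The counts were the same without PBS replicate 3. *Ifi202b* and *Ifi208* rested on few counts, with totals of 6 and 2 over the PBS libraries, and *Ifi208* on 17 in LPS. *Ifi206* was the most abundant of them, with mean normalized counts of 51.6 for PBS and 79.8 for frHMGB1, then 5362 for dsHMGB1, 13462 for LPS and 17149 for LPS/IFNγ. *Ifi214* had means of 12.7, 4.89, 884, 916 and 2197 in that order. The pseudogene *Ifi203-ps* had means of 17.4, 21.3, 791, 1233 and 1397, and 24.3% of its 50-base stretches are also in *Ifi203*. *Ifi202b*, which encodes HIN domains without a pyrin domain, had 0 counts in all frHMGB1 libraries, and its means of 18.4 in dsHMGB1 and 218 in LPS were at least 16.4-fold and 195-fold higher than the level of 3 counts over that group. *Ifi208* likewise had 0 counts in frHMGB1. It stood at 21.3, 33.0 and 36.7 in dsHMGB1, 9.12, 12.0 and 2.94 in LPS and 188, 173 and 153 in LPS/IFNγ, which gave a log2 fold change of 1.90 (SE 0.49, adjusted p = 0.014) for dsHMGB1 against LPS and of 4.39 (SE 0.48, adjusted p = 4.93e-05) for LPS/IFNγ against LPS. Its 60-base window around the ISRE core is the one identical to that of *Ifi213*, for which dsHMGB1 was below LPS. Of the 50-base stretches of *Ifi208*, 18.1% were also in *Ifi213*. The coding sequences matched at 96.9% of 1758 aligned bases, so the split of reads between *Ifi208* and *Ifi213* is uncertain.

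Of 8 inflammasome partners, 7 were called higher and 0 lower than PBS in each of dsHMGB1, LPS and LPS/IFNγ, beside 23.3%, 26.7% and 29% of all genes higher and 24.2%, 36.2% and 31.2% lower, with medians of 1.52, 1.93 and 1.91 on the log2 scale. *Pycard*, the adaptor ASC, was the one not called, at -0.65 (SE 0.31), -0.57 (SE 0.31) and 0.35 (SE 0.31), with PBS libraries spread from 1275 to 3677 normalized counts. Without PBS replicate 3 it stood at 0.04, 0.16 and 1.02, and was called higher in LPS/IFNγ (adjusted p = 2.33e-08). *Casp1*, encoding caspase-1, had mean normalized counts of 5552 (PBS), 17236 (dsHMGB1), 21091 (LPS) and 12956 (LPS/IFNγ), the order that *Aim2* showed over these 4 conditions, and was lower in LPS/IFNγ than in LPS by a log2 fold change of -0.70 (SE 0.12, adjusted p = 0.000587). *Il1b*, the substrate with the largest change, rose by 10.43 (SE 0.23), 13.53 (SE 0.25) and 10.67 (SE 0.23) over PBS.

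Of the cGAS-STING pathway, 10 of 11 genes were tested, and 7 were called higher in each of the 3 conditions, with 2, 2 and 3 called lower in dsHMGB1, LPS and LPS/IFNγ. The share of all genes called higher was 23.3%, 26.7% and 29% and that called lower 24.2%, 36.2% and 31.2%. *Cgas*, encoding the cytosolic DNA sensor that makes cGAMP, rose by 2.97 (SE 0.19), 2.98 (SE 0.19) and 3.23 (SE 0.19) over PBS. *Sting1*, encoding the receptor of cGAMP, rose by 0.43 (SE 0.07) in dsHMGB1, 0.83 (SE 0.07) in LPS and 3.83 (SE 0.08) in LPS/IFNγ, a difference of 3.00 (SE 0.08, adjusted p = 1.65e-10) between the last 2. *Ifnb1*, encoding interferon β, rose the most, by 8.18 (SE 0.46), 10.02 (SE 0.46) and 10.89 (SE 0.47), and *Dnase2a*, encoding a lysosomal DNase, fell by 1.58 (SE 0.22), 1.77 (SE 0.22) and 1.88 (SE 0.22). The PBS libraries of *Dnase2a* ran from 8881 to 17862 normalized counts. Without PBS replicate 3 its log2 fold changes were -1.16, -1.31 and -1.47.

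Among 12 other DNA sensors, 2, 4 and 3 were called higher and 4 lower in each condition, beside shares over all genes of 23.3%, 26.7% and 29% higher and 24.2%, 36.2% and 31.2% lower, with medians of 0.18, 0.12 and 0.20. Without PBS replicate 3 the counts were 4, 5 and 4 higher and 4, 5 and 4 lower. No share over all genes was computed for them. *Zbp1*, a sensor of Z-form nucleic acids, rose by 5.44 (SE 0.22), 6.38 (SE 0.23) and 6.15 (SE 0.22), and *Xrcc6*, encoding a subunit of the Ku DNA repair complex, fell by 1.63 (SE 0.14), 2.34 (SE 0.14) and 2.33 (SE 0.14). Of 9 genes of the interferon pathway, 8, 8 and 7 were called higher and 0, 0 and 1 lower. *Irf8*, a transcription factor, rose by 0.95 (SE 0.07), 2.82 (SE 0.08) and 4.93 (SE 0.09), and *Ifngr2*, a chain of the IFNγ receptor, was lower in LPS/IFNγ, by -0.34 (SE 0.07, adjusted p = 0.00105). All 14 interferon-stimulated genes were called higher in the 3 conditions, with medians of 6.42, 7.56 and 6.73, from *Oas3* (3.32, SE 0.16) to *Oasl1* (9.21, SE 0.28) in LPS/IFNγ. In LPS/IFNγ against LPS, where the LPS dose may differ too, 8 of these 14 were called lower and 0 higher. That stands beside 9.36% and 16.3% of all genes, with a median of -0.65, beside the PYHIN median of -0.02. In frHMGB1, 1 inflammasome partner and 1 gene of the cGAS-STING pathway were called higher, beside 1.31% of all genes. None of these lists had a gene called lower, beside 5.69%. Without PBS replicate 3 the counts called higher were 5 of 8 and 3 of 10. So were 1 of 12 other DNA sensors, 2 of 9 genes of the interferon pathway and 2 of 14 interferon-stimulated genes. Among the other DNA sensors 1 of 12 was called lower. The share of all genes called in that fit was not computed, so these counts have no background beside them.

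**Figure D5:**
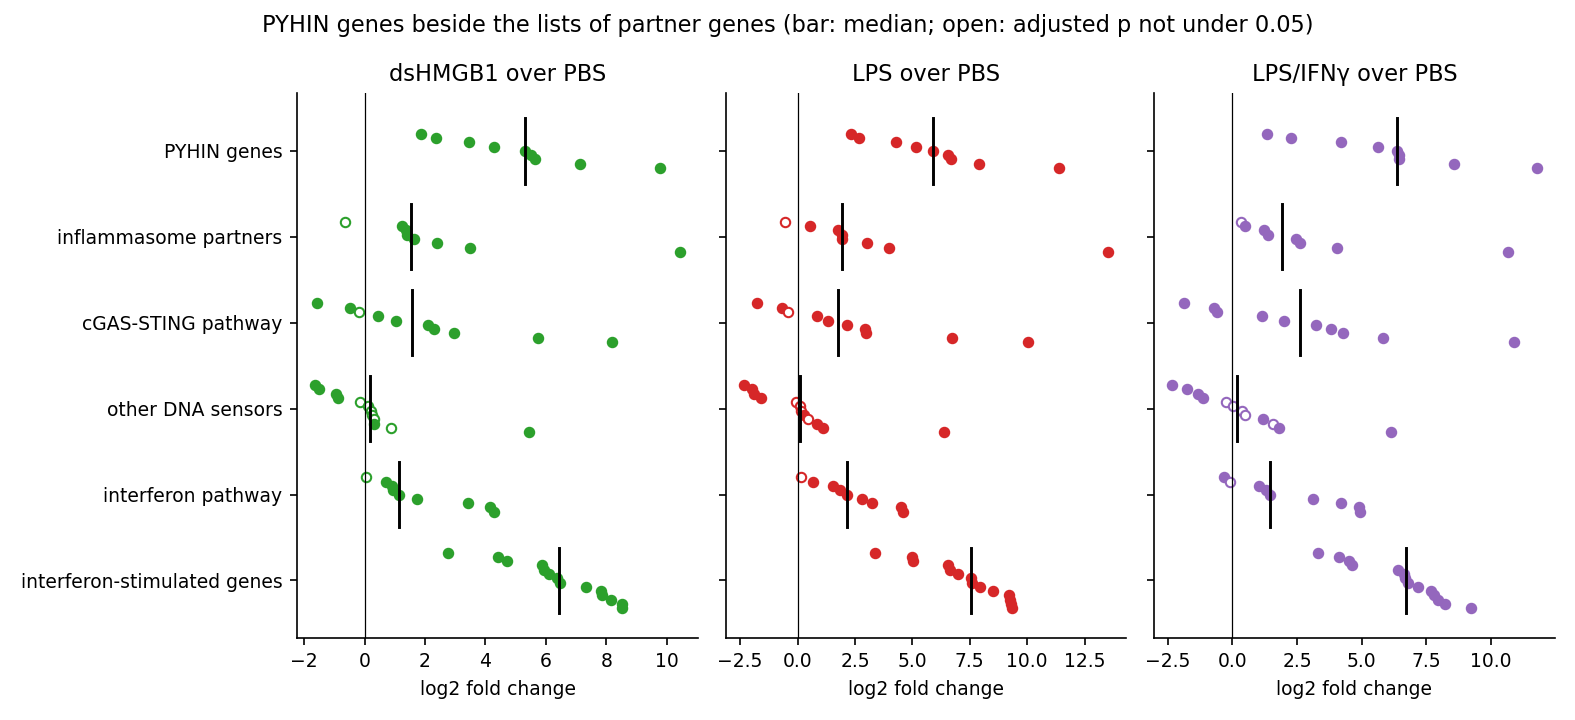
Log2 fold change over PBS (horizontal) of the 9 PYHIN genes and of the genes of 5 partner lists, in dsHMGB1, LPS and LPS/IFNγ, with 1 point per gene, open where the adjusted p was not under 0.05, and the median as a bar. The PYHIN medians of 5.31, 5.89 and 6.35 lie next to those of the interferon-stimulated genes, 6.42, 7.56 and 6.73.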

How the data were processed

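Normalized values were computed from the deposited table of whole-number read counts per gene, which the authors made from stranded, paired-end mRNA libraries sequenced on a NextSeq 2000, with CASAVA, STAR and the GRCm38 genome according to the methods and the submitters' processing notes. The counting program, its annotation and its use of strand are not given in any source used here, nor is the handling of reads that fit several paralogs. GENCODE M21 held 51661 of the 51763 identifiers.

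The 15 libraries were fitted together in edgeR 4.0.16 (R 4.3.3) with TMM normalization, filterByExpr and the quasi-likelihood F test, without covariates, and 16919 genes were tested in 8 pairs of conditions. The authors had used DESeq2 with a fold cut-off and no p. The SE is the log2 fold change divided by the square root of F. Alternatives were DESeq2 1.42.0, RLE size factors, 2 other filters, the 2 conditions alone, protein-coding genes, a block for the replicate number, and fits without each library. The sum of 3 overlapping genes, and the partner lists without PBS replicate 3, were added after seeing the data. The fit was tested on simulated data.

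The members, the partner lists and the tests were chosen with earlier results of these data known. Genes were named by rule, as all members, the other PYHIN genes, the partners with the largest and smallest change in LPS/IFNγ, *Pycard*, *Casp1*, *Cgas* and *Sting1*, and the 3 most alike genes per member, sought among genes whose normalized counts averaged 100 or more. Shared stretches were counted in GENCODE M21 transcripts, and coding sequences were aligned locally with Biopython 1.88. Counts of reads amplified by PCR are not independent molecules. Replicates differed by more than sampling noise, with a chi-square per degree of freedom of at least 3.702. The count table held 0 columns without a sample.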

Additional observations from a re-analysis of the deposited data

How the results depend on the processing

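The calls of dsHMGB1, LPS and LPS/IFNγ over PBS and those of dsHMGB1 over frHMGB1 were 9 of 9 under every alternative run. For dsHMGB1 against LPS, 6 to 9 members were called with 1 library left out, and for dsHMGB1 against LPS/IFNγ 8 to 9. The count for frHMGB1 against PBS, 2, was 1 with no filter on low counts, 1 with at least 1 CPM in 3 libraries, 1 with protein-coding genes only, 0 in the fit of the 2 conditions compared, and 1 to 3 with 1 library left out. The count for LPS/IFNγ against LPS, 5, was 2 with no filter, 8 in the fit of the 2 conditions and 1 with the overlapping genes summed, and 2 to 6 with 1 library left out. The cause of these changes was not tested. DESeq2 called 3 and 6 members in these comparisons. The share of all genes called is given for the main fit alone throughout. Counts from any other fit, here and above, therefore have no background beside them.

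The sign turned for *Ifi209* in frHMGB1 against PBS (0.0033 with the replicate block, 0.0017 with the overlapping genes summed, and -0.19 to 0.16 with 1 library left out), for *Ifi204* and *Ifi207* there (0.088 and -0.082 without PBS replicate 3, and -0.29 to 0.09 and -0.08 to 0.41 over all libraries left out), and for *Ifi207* in LPS/IFNγ against LPS with protein-coding genes only (0.020). None of these was called. It also turned for *Ifi211* in LPS/IFNγ against LPS with the overlapping genes summed (0.28), a value of the sum.

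Over the 1656 alternatives for single members, 1574 kept direction and side of the threshold, 54 lost a call, 12 gained one and 16 changed sign. Same-numbered replicates did not deviate together (correlations of -0.3857 to 0.375, over 0.1 in 1 of 30 pairs, and 6 of 15 libraries closest to their own number), so no pairing by number was seen. Whether samples shared a plate or a batch was not tested. The replicate block left the counts of members called at 2, 9, 9, 9, 9, 8, 8 and 5 in the 8 comparisons and changed no call.

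The summed members' log2 ratio over PBS stood at 3.47 with dsHMGB1, 4.34 with LPS and 4.48 with LPS/IFNγ, and 3.10, 3.69 and 3.80 on CPM of the total count. Low counts limit *Ifi205* and *Ifi213* in PBS and frHMGB1, and shared sequence limits *Ifi209* and *Ifi211*.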
